A study of Mus musculus with 17 samples.

Results

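Mrc1, Cd163, Folr2, Lyve1, Cd36, Trem2, Apoe, Gpnmb, Spp1 and F13a1 encode scavenger receptors and proteins of lipid and matrix handling that mark macrophages in tumors. Their rows were read from a table of counts for 55450 genes by matching Ensembl identifiers to these 10 symbols in the Gencode vM21 annotation, and all 10 were found. The symbols alone picked the rows, but the list was chosen from earlier results of these same counts, in which several of its genes differed between days or with treatment. The values below therefore describe the 10 genes, and the tests are not independent evidence about them.

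The tumors grew from AB12 cells, a mouse line of mesothelioma, injected into the peritoneum of 8-week-old female BALB/c mice. RNA of whole tumors was sequenced from untreated mice, 3 of them on d6 (the early phase), 5 on d10 (intermediate) and 3 on d14 (advanced), and from mice given anti-CTLA4, a checkpoint-blocking antibody, and taken on d10 (n = 3) and d14 (n = 3). The antibody was clone 9D9, 200 µg into the peritoneum, and all 17 tumors came from the same cell line in immunocompetent mice. The labels give a course of 4 injections and the study's text gives injections on d6 and d10 for the treated d14 tumors, while the injections that the treated d10 tumors had received are not given in the sources used here.

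Total counts per tumor lay between 46371577 and 96759833. Transcripts of the tumor and mesothelium list (Msln, Upk3b, Wt1, Krt8, Krt18, Krt19 and Lrrn4) summed to between 1878 and 4036 normalized CPM (read counts scaled to the library total and by the TMM factors of edgeR over all 17 tumors), and a list of 15 pan-macrophage genes, among them Adgre1, Csf1r, Cd68 and the C1q genes, summed to between 1514 and 5896. Untreated d10 tumors 4 and 5 differed from d10 tumors 1 to 3 in the small RNA Mir6236, with 176 and 141 counts against 3964 to 12332. Their mitochondrial share of counts was lower as well, at 0.88% and 0.89% against 1.38% to 1.95%. Mir6236 also differed along day and treatment. It held 3387 to 4697 counts at d6, 205 to 1244 in treated d10 tumors and 5 to 24 in the d14 tumors of both groups. The cause of these differences was not tested. Treated d14 tumors 1 and 3 held transcripts of pancreas acinar cells, with summed CPM of 2906 and 985.8 over Cpa1, Ctrb1, Cela2a, Pnlip and Cel, against 1.41 in treated d14 tumor 2 and at most 0.13 in every other tumor. Values without d10 tumors 4 and 5 are given below where they change a call or a count. Some fold changes without treated d14 tumors 1 and 3 are given as well.

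Macrophages take up dying cells, modified lipoproteins and matrix fragments through scavenger receptors, break them down in lysosomes, and return cholesterol to the outside on apolipoproteins. In tumors, macrophages that carry Folr2, Lyve1 and Cd163 are often described as resident-like and close to vessels, and those that carry Trem2, Spp1, Gpnmb and Apoe as lipid-laden. RNA of a whole tumor does not separate these cells: fewer macrophages and less RNA per macrophage give the same lower count, and the 2 cannot be told apart.

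Start regions are shown for 4 of the 6 genes that passed both thresholds in any of the tests of all tumors below, Apoe and F13a1 during tumor growth, Folr2 in the advanced phase and Cd36 under treatment. Of the others, Cd163 held none of the motifs and is not printed, and Lyve1 had no entry. Gpnmb passed both thresholds only in fits that left out some tumors, and its start region, which held an AP-1 match, is not printed. The start regions are RefSeq sequences of GRCm38.p6 from 250 bases before to 50 bases after a start site, and 9 of the 10 genes, with 14 start regions, were found there. Capitals mark matches on either strand to any of 5 motifs. The first is GAGGAAGT, bound by PU.1, the lineage factor of macrophages. The second is TGANTCA, bound by AP-1, a factor of growth and stress signals. The third is CACGTG, the E-box that factors of the MITF family share with many others. The fourth is CATGTG, the core of the M-box of the same family. The last is TATAAA, the box near the start of many strongly used promoters.
Apoe, chr7:19699139-19699438, minus strand: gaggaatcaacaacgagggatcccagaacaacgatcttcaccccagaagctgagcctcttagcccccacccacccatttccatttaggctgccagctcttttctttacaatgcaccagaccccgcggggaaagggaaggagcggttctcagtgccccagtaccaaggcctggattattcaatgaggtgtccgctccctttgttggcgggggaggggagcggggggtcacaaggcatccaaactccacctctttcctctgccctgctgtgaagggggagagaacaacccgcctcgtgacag
F13a1, chr13:37049164-37049463, minus strand: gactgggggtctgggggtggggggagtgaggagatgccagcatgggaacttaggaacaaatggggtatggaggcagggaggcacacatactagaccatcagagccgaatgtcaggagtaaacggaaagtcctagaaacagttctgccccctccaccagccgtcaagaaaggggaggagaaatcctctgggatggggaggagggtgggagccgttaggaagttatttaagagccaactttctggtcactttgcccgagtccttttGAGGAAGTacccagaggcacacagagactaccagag
Folr2, chr7:101845282-101845581, minus strand: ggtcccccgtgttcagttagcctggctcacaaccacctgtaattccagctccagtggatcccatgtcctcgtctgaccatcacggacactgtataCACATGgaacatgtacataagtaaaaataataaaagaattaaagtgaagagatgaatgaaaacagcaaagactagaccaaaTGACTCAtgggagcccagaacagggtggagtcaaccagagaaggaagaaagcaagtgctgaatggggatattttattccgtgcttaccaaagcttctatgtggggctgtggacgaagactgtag
Cd36, chr5:17835847-17836146, minus strand: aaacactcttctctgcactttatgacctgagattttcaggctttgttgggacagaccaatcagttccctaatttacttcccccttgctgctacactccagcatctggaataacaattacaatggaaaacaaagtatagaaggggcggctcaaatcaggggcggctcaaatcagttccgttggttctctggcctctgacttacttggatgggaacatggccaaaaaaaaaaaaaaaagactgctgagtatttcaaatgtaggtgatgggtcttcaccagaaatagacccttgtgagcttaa
F13a1 held the PU.1 letters just downstream of the start printed here, and Folr2 held an AP-1 and an M-box match upstream of its start. Both genes have 1 other start in the table, which held none of the 5 motifs and is not shown. The printed regions of Apoe and Cd36 held none of the motifs. Apoe has 2 other starts, of which 1 held 2 TATA box matches and the other no match. Over the start regions of the gene set, the PU.1 letters stood in 2 of 14, against 3.20% of 32851 start regions of all genes, the AP-1 letters in 3 of 14 against 7.81%, the M-box core in 2 of 14 against 14.2%, the TATA box in 2 of 14 against 13.6% and the E-box in 0 of 14 against 7.15%. These are matches of letters and no measurement of binding.

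Levels between genes were compared per kilobase of exon. Averaged over the 17 tumors, Spp1 stood first with 1476 CPM per kb, followed by Apoe (286), Mrc1 (35.5), Gpnmb (28.4), F13a1 (13.7), Cd36 (11.4), Folr2 (7.20), Lyve1 (1.89), Cd163 (1.61) and Trem2 (listed at 0 in 15 of 17 tumors). Over all tumors the ranges of Spp1, Apoe and Mrc1 were separate and each pair of neighbours from Mrc1 down to Cd163 overlapped. Within the untreated d6 group Apoe (59.3 to 98.1 CPM per kb), Mrc1 (32.6 to 40.4), Gpnmb (13.6 to 21.8) and Folr2 (8.66 to 9.78) were separate. F13a1 and Folr2 exchanged places in this order: F13a1 was the seventh at d6 (2.71 to 3.49 CPM per kb, overlapping with Lyve1 at 1.90 to 3.97) and the fifth in every later group, and Folr2 went from the fifth to the seventh. Mrc1 and Gpnmb overlapped in each group from d10 on apart from the treated d14 tumors, where Mrc1 (30.99 to 35.8 CPM per kb) stood above Gpnmb (22.3 to 26.9).

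**Figure D1:**
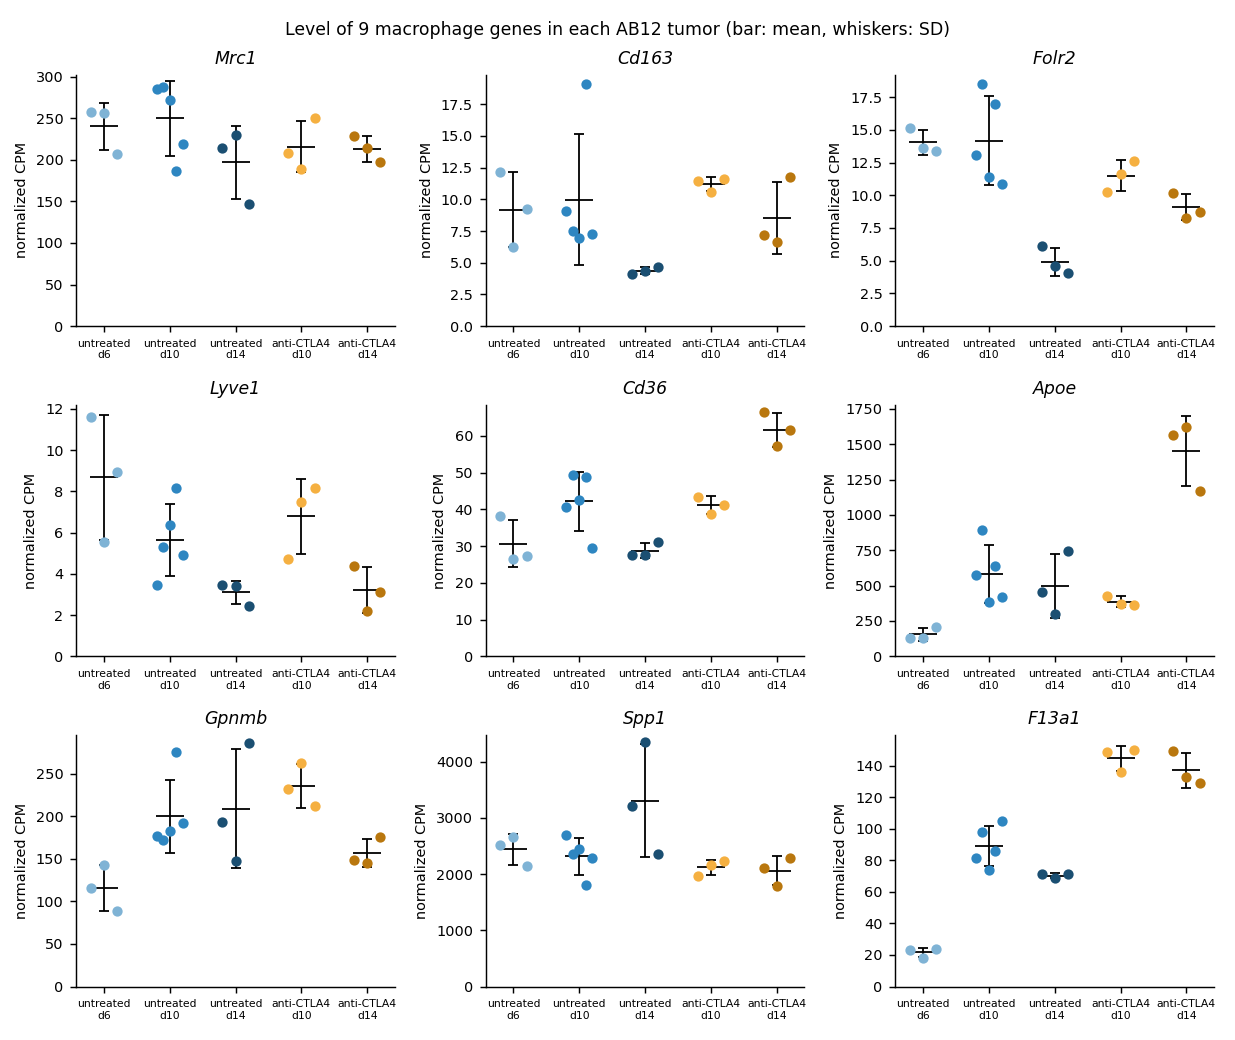
Level of 9 genes in each tumor, in normalized CPM on linear axes that start at 0, with 1 point per tumor, the group mean as a bar and the SD as whiskers (n = 5 for untreated d10, n = 3 for the other groups). F13a1 lay between 18.3 and 23.5 at d6 and at 68.5 or above in every later tumor, Apoe was at 1168 or above in the treated d14 tumors, and Folr2 was at 6.10 or below in the untreated d14 tumors.

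Among the scavenger and endocytic receptors, Mrc1 (chr2:14229392-14332057, plus strand), the mannose receptor CD206, read 257, 256 and 207 CPM in the d6 tumors, 285, 288, 272, 186 and 219 at d10 and 215, 229 and 147 at d14. Treated tumors gave 208, 189.6 and 249.8 CPM at d10 and 228, 214 and 197 at d14. All 5 groups overlapped, and no comparison of Mrc1 passed an adjusted p of 0.05 in the tests of all tumors described below. Against untreated d10 tumors 1 to 3 alone, it was lower by adjusted p in the untreated d14 (-0.51, adjusted p = 0.0385), the treated d10 (-0.38, adjusted p = 0.0287) and the treated d14 tumors (-0.43, adjusted p = 0.00313), each under the fold threshold. The microRNA gene Mir511 inside Mrc1 held 0 to 2 counts per tumor.

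Cd163 (chr6:124304656-124330527, plus strand), the receptor for haemoglobin bound to haptoglobin, read 12.1, 6.21 and 9.21 CPM at d6 and 9.07, 7.49, 6.97, 19.1 and 7.23 at d10. In the untreated d14 tumors it read 4.09, 4.36 and 4.64 CPM, below every d6 and d10 tumor. With treatment it read 11.5, 10.6 and 11.6 CPM at d10 and 7.16, 6.60 and 11.8 at d14, in each case above the untreated d14 tumors. Untreated d10 tumor 4 stood alone at 19.1 CPM, more than any other tumor.

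Folr2 (chr7:101839988-101857194, minus strand), the folate receptor beta of macrophages, read 15.1, 13.6 and 13.4 CPM at d6 and 13.1, 18.5, 11.4, 16.97 and 10.9 at d10, groups that overlapped. The untreated d14 tumors read 6.10, 4.63 and 4.03 CPM and lay below all the others. Treated tumors read 10.2, 11.6 and 12.6 CPM at d10 and 10.2, 8.29 and 8.75 at d14, so the treated d14 tumors lay between the untreated d14 and the untreated d6 and d10 tumors. The gene model Gm10602 overlaps Folr2 and held 22 to 114 counts per tumor, and use of strand in counting was not stated.

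Lyve1 (chr7:110850607-110863239, minus strand), a hyaluronan receptor that lymphatic endothelium carries as well, read 11.6, 5.54 and 8.95 CPM at d6, 3.46, 5.28, 6.40, 8.18 and 4.90 at d10 and 3.46, 3.41 and 2.44 at d14. Treated tumors read 4.73, 7.46 and 8.17 CPM at d10 and 4.38, 2.19 and 3.11 at d14. Tumors of both d14 groups, treated or not, lay in the low part of the range, and only treated d14 tumor 1 among them exceeded any d6 or d10 tumor, namely untreated d10 tumor 1. The lymphatic genes Prox1, Flt4, Ccl21a, Reln and Mmrn1 summed to between 2.50 and 6.80 CPM, with Ccl21a at or under 3 counts in all tumors, and their part in the Lyve1 values was not tested.

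Cd36 (chr5:17781690-17888801, minus strand), which takes up fatty acids and oxidized lipoprotein, read 38.1, 26.4 and 27.4 CPM at d6, 40.5, 49.3, 42.6, 48.7 and 29.6 at d10 and 27.6, 27.5 and 31.1 at d14. With treatment it read 43.4, 38.7 and 41.3 CPM at d10 and 66.3, 57.1 and 61.5 at d14. The 3 treated d14 tumors held the 3 highest values of the series. Fat cells and endothelium use Cd36 as well. The adipocyte genes Adipoq, Plin1, Cidec, Lep, Retn, Cfd and Pck1 summed to between 12.9 and 37.4 CPM at d6, 11.4 and 24.7 at untreated d10 and 1.29 and 4.59 at untreated d14. With treatment they summed to between 5.07 and 6.17 CPM at d10 and 3.08 and 10.5 at d14. Lep was at or under 3 counts in every group but untreated d10. The 8 endothelial genes summed to between 107.2 and 124.9 at untreated d14 and 170.8 and 204.4 at treated d14. From untreated d10 to d14, 4 of the 7 adipocyte genes were tested. All 4 were called lower, as 3.45% of all genes were, with a median log2 fold change of -2.52. The part of either cell type in the Cd36 values was not tested.

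Trem2 (chr17:48346401-48354147, plus strand), a receptor for lipids and lipoproteins that signals through Tyrobp, was at 0 counts in 15 of the 17 tumors and at 1 count in untreated d14 tumor 1 and treated d14 tumor 2. It was in none of the fits. The low count was shared by its neighbours: the 12 consecutive protein coding genes from Trem1 to Unc5cl (chr17:48232768-48539714) held 4 counts in all over the 17 tumors. Among them were Nfya, a subunit of a transcription factor that most cells use, at 0 counts, and Oard1 at 1. The nearest protein coding genes outside, A530064D06Rik and Lrfn2, held 2815 and 303 counts. A count of 0 here is therefore given as listed and not as absence of Trem2 RNA, and why the whole stretch is near 0 was not tested.

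**Figure D2:**
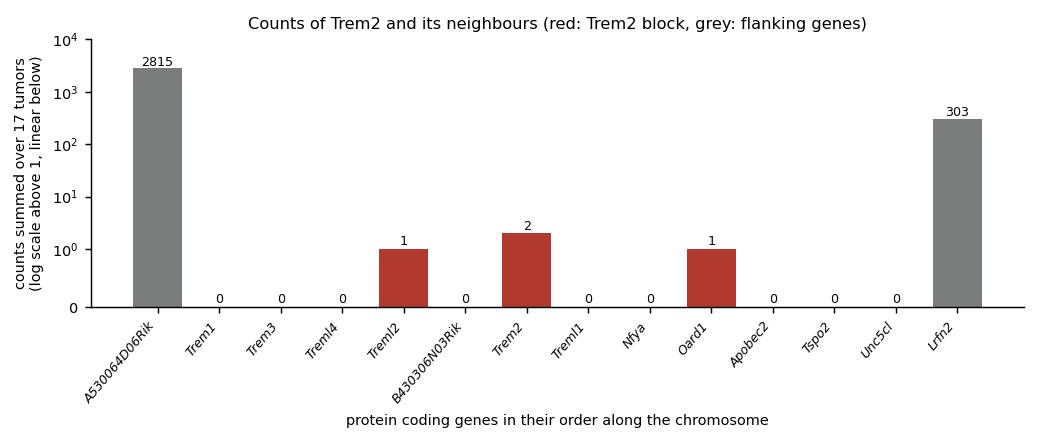
Counts summed over the 17 tumors for Trem2 and the protein coding genes around it, in their order along the chromosome, with an axis that is linear below 1 and logarithmic above. All 12 genes of the stretch (red) held between 0 and 2 counts, against 2815 and 303 in the flanking genes (grey).

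Apoe (chr7:19696109-19699188, minus strand) encodes apolipoprotein E, on which macrophages export cholesterol. It read 127, 130.4 and 209.8 CPM at d6, 574, 891, 381, 638 and 419 at d10 and 456, 297 and 744 at d14, and every d10 and d14 tumor exceeded every d6 tumor. Treated tumors read 429.6, 368 and 362 CPM at d10 and 1568, 1620.4 and 1168 at d14. The treated d14 tumors lay above all the other tumors, with a mean of 1452 ± 248 CPM (SD, n = 3) against 499 ± 227 (SD, n = 3) without treatment. The highest Apoe value, 1620 CPM, was in treated d14 tumor 2, the one with almost no pancreas transcripts. Liver, the main source of Apoe in the body, left summed CPM of 0.09 to 5.45 over Alb, Apoa1, Apoa2, Ttr, Ahsg and Apob, the highest in treated d14 tumor 1, and Alb, Apoa1 and Ttr were at or under 3 counts in the other 4 groups.

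Gpnmb (chr6:49036546-49070929, plus strand), a glycoprotein of lysosomes and the cell surface, read 115, 142 and 88.5 CPM at d6, 176, 172, 183, 275 and 192 at d10 and 193, 148 and 285 at d14. With treatment it read 232, 262 and 212 CPM at d10 and 148, 145 and 175 at d14. The d6 tumors lay below all the others, and the treated d14 tumors lay below all the treated d10 tumors. Untreated d10 tumor 4, which was also highest for Cd163, was the highest of its group at 275 CPM.

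Spp1 (chr5:104435118-104441050, plus strand) encodes osteopontin, a secreted ligand of integrins and CD44 that tumor cells make too. It read 2509.6, 2663 and 2139.9 CPM at d6, 2688, 2363, 2445, 1801 and 2287 at d10 and 3217, 4347 and 2349 at d14. Treated tumors read 1972, 2156 and 2231 CPM at d10 and 2101, 1789 and 2291 at d14. Untreated d14 tumors 1 and 2 held the 2 highest values of the series, and each treated d14 tumor lay below each untreated d14 tumor. Within the untreated d14 group, tumor 3 was the lowest for Spp1, Mrc1, Lyve1 and Folr2 and the highest for Apoe, Gpnmb, Cd36 and Cd163.

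F13a1 (chr13:36867178-37050244, minus strand) encodes the catalytic subunit of coagulation factor XIII, a transglutaminase that crosslinks fibrin and that macrophages and platelets hold. It read 23.4, 18.3 and 23.5 CPM at d6, 81.7, 98.2, 73.9, 86.1 and 105 at d10 and 71.2, 68.5 and 71.3 at d14. Treated tumors read 149, 136 and 149.9 CPM at d10 and 149.6, 133 and 129 at d14. No group overlapped with another except for the 2 treated ones, whose 6 tumors lay above all 11 untreated tumors. The platelet genes Itga2b, Gp9, Ppbp, Gp1bb and Itgb3 summed to between 12.3 and 15.3 CPM at d6, 23.6 and 27.5 at untreated d10, 17.2 and 20.0 at untreated d14, 25.5 and 35.0 at treated d10 and 34.0 and 37.1 at treated d14. The order of the group means was that of F13a1 but for the 2 treated groups, Gp1bb was at or under 3 counts in every group, and their part in the F13a1 values was not tested.

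The tests across time and treatment used edgeR's quasi-likelihood test on all genes that passed its filter, with the 9 genes other than Trem2 in every fit. Fold changes are on a log2 scale and given with their standard error, adjusted p is by Benjamini-Hochberg over all genes of the fit, and a gene was called at an adjusted p below 0.05 and a fold change above 2. Between d6 and d10, 2 of the 9 genes were called, both higher, where 7.45% of 16866 genes were called, 4.79% higher and 2.66% lower. F13a1 rose by 2.06 ± 0.16 (adjusted p = 9.35e-05), which is 4.17-fold, and Apoe rose by 1.92 ± 0.30 (adjusted p = 0.00280), which is 3.78-fold. Both were also called with d10 tumors 1 to 3 alone (F13a1 1.99, Apoe 2.0) and with d10 tumors 4 and 5 alone (F13a1 2.15, Apoe 1.77). Gpnmb was 0.82 ± 0.19 higher (adjusted p = 0.0179) and under the fold threshold, which it passed against d10 tumors 4 and 5 (1.03). These 3 genes were also the ones whose d10 tumors all exceeded their d6 tumors, as 14.1% of all genes did, while 0 of the 9 and 14.4% of all genes were lower without overlap. At any fold 17.5% of all genes passed the adjusted p. The median log2 fold change of the 9 genes was 0.14, against 0.03 over all genes. The remaining 6 genes did not pass, from Lyve1 at -0.60 ± 0.30 to Cd36 at 0.48 ± 0.18. With d10 tumors 1 to 3 alone, Cd36 passed the adjusted p (0.55, adjusted p = 0.0218) and stayed under the fold threshold.

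Between d10 and d14 without treatment, 2 of the 9 genes were called, both lower, where 7.23% of 17659 genes were called, 3.78% higher and 3.45% lower. Folr2 fell by 1.53 ± 0.23 (adjusted p = 0.00628), to 0.347 of its d10 level. Its change was -1.54 against d10 tumors 1 to 3 and -1.51 against tumors 4 and 5. Cd163 fell by 1.20 ± 0.34 (adjusted p = 0.0376). That call rested on d10 tumor 4 among others: the change was -0.84 and not called with d10 tumors 1 to 3, and over the leave-one-out fits it ran from -1.29 to -0.82, with the call lost without d10 tumor 1, 2 or 4 or without any one of the d14 tumors. The log2 fold change of Cd36 was -0.55 ± 0.16 (adjusted p = 0.0367), under the fold threshold. At any fold 3 of the 9 passed, against 19.7% of all genes. The d14 tumors lay below all d10 tumors in 4 of the 9, Folr2, Cd163, Lyve1 and F13a1, against 13.2% of all genes, and above them in 0 of the 9, against 15.1%. The median of the 9 genes was -0.35, against -0.04 over all genes. None of the 9 was called higher, and Spp1 stood at 0.51 ± 0.20 (adjusted p = 0.0933).

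Over the whole course from d6 to d14, 5 of the 9 genes were called, where 19.0% of 17172 genes were called, 10.2% higher and 8.81% lower. F13a1 (1.71 ± 0.11, adjusted p = 2.89e-05) and Apoe (1.69 ± 0.31, adjusted p = 0.00216) rose. Folr2 (-1.49 ± 0.18, adjusted p = 2.41e-04), Lyve1 (-1.47 ± 0.28, adjusted p = 0.00252) and Cd163 (-1.06 ± 0.24, adjusted p = 0.00557) fell. At any fold 6 of the 9 passed, against 51.5% of all genes. The sixth, Gpnmb, passed the adjusted p alone (0.87 ± 0.23, adjusted p = 0.0123) and both thresholds without d6 tumor 2 or without d14 tumor 2 (up to 1.07). The Cd163 call was lost without d6 tumor 1, where the change was -0.81, and with library size in place of TMM (-0.97). The level of 6 genes did not overlap between d6 and d14, 3 higher (F13a1, Apoe and Gpnmb) and 3 lower, while 29.5% of all genes were higher and 31.6% lower without overlap. These 3 comparisons share groups with each other and are not independent.

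**Figure D3:**
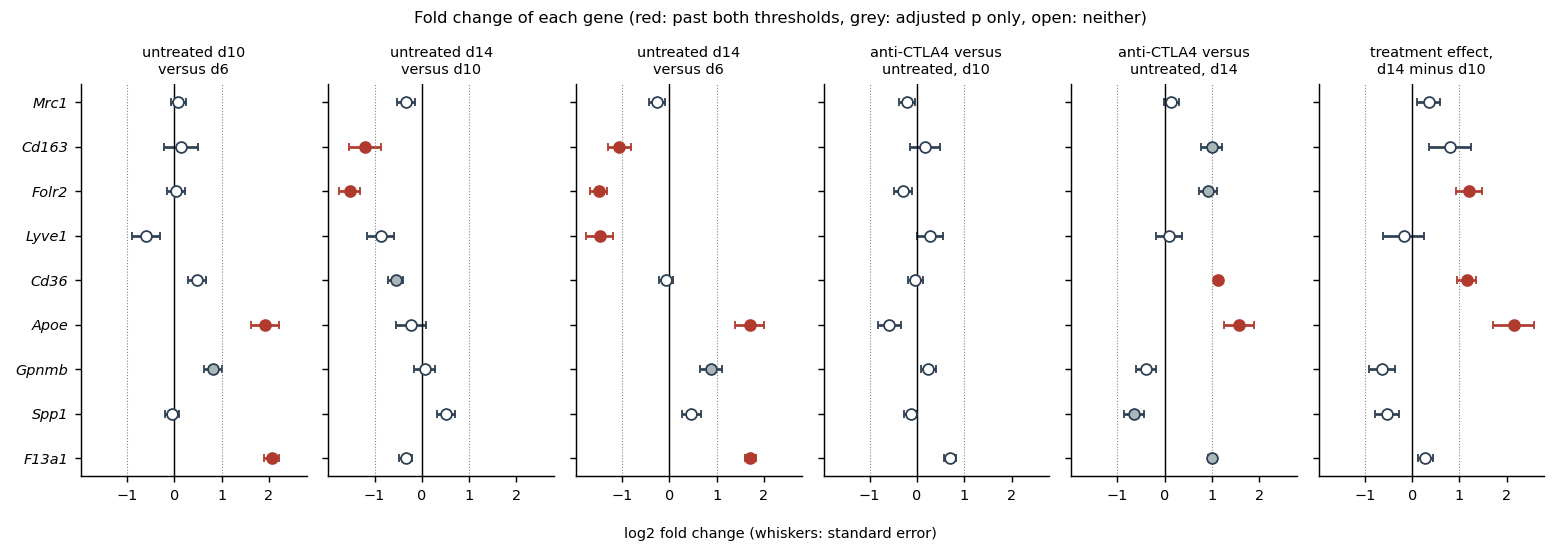
Log2 fold change of 9 genes with its standard error in 5 comparisons and in the difference between the treatment effects at d14 and d10. Red points passed both thresholds, grey points the adjusted p alone and open points neither, and the dotted lines mark the 2-fold threshold. Apoe passed in every panel but untreated d14 against d10 and treated against untreated at d10.

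At d10, 0 of the 9 genes were called between treated and untreated tumors, where 0.0174% of 17258 genes, or 3, were called by edgeR. DESeq2 called 58 genes higher and 165 lower, and also 0 of the 9. That count depended on which untreated tumors entered: against d10 tumors 1 to 3 alone edgeR called 329 genes higher and 823 lower, and against d10 tumors 4 and 5 alone 60 and 36, with 0 of the 9 called in either. At an unadjusted p under 0.05 there were 2329 genes, among them 2 of the 9, F13a1 and Apoe. F13a1 was higher in all 3 treated tumors than in all 5 untreated tumors, as 3.86% of all genes were (4.59% were lower), with a log2 fold change of 0.70 ± 0.12 (adjusted p = 0.0986). DESeq2 gave F13a1 0.71 with an adjusted p of 1.31e-04, and the fit of all 5 groups 0.70 with an adjusted p of 0.0114, both under the fold threshold. Against d10 tumors 1 to 3 alone, F13a1 (0.79, adjusted p = 0.00136), Gpnmb (0.42, adjusted p = 0.0131) and Cd163 (0.53, adjusted p = 0.0148) were higher and Mrc1 lower by adjusted p alone. Against d10 tumors 4 and 5, F13a1 was at 0.59 (adjusted p = 0.0630), Gpnmb at 0.00 and Cd163 at -0.24. Apoe stood at -0.58 ± 0.25 (adjusted p = 0.355), with overlapping groups.

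At d14, 2 of the 9 genes were called between treated and untreated tumors, both higher, where 11.5% of 18062 genes were called, 9.07% higher and 2.4% lower. Apoe was 2.98-fold higher (1.57 ± 0.31, adjusted p = 0.0104) and Cd36 2.19-fold higher (1.13 ± 0.09, adjusted p = 0.00292), in 3 of 3 tumors each. F13a1 (1.0 ± 0.08, adjusted p = 0.00324), Cd163 (0.99 ± 0.22, adjusted p = 0.0150) and Folr2 (0.92 ± 0.19, adjusted p = 0.0112) were higher by adjusted p alone, just under the fold threshold. Spp1 was lower by adjusted p alone (-0.65 ± 0.20, adjusted p = 0.0435). At any fold 6 of the 9 passed, against 32.4% of all genes. The median of the 9 genes was 0.92, against -0.00 over all genes. In these 6 genes the 3 treated tumors lay on one side of the 3 untreated ones, while 24.2% of all genes were higher and 27.7% lower without overlap. Without treated d14 tumors 1 and 3, which held pancreas transcripts, 1 treated tumor was left, whose spread is assumed to equal that of the untreated group. The changes were then 1.73 for Apoe, 1.03 for Cd36, 0.95 for F13a1, 0.79 for Folr2, 0.63 for Cd163 and -0.84 for Spp1. A fit with 1 treated tumor cannot show whether a call holds, so its calls are not given. In the leave-one-out fits 2 to 5 genes were called: F13a1 passed the fold threshold in 4 of these 6 fits, Cd163 in 3 and Folr2 in 2.

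The treatment effect itself differed between d14 and d10 for 3 of the 9 genes, all more positive at d14. The same was called for 11.8% of 18574 genes, 9.67% with a more positive and 2.15% with a more negative effect at d14. Of the 15 pan-macrophage genes 12 were called, all more positive at d14, with a median of 1.38 against -0.02 over all genes. At d10 the effect had been -0.58 for Apoe, -0.30 for Folr2 and -0.03 for Cd36, none past the adjusted p. At any fold 17.7% of all genes and the same 3 of the 9 passed. The difference was 2.15 ± 0.43 for Apoe (adjusted p = 0.00619), 1.21 ± 0.28 for Folr2 (adjusted p = 0.0115) and 1.16 ± 0.20 for Cd36 (adjusted p = 0.00395). For F13a1, higher under treatment on both days, it was 0.28 ± 0.16 (adjusted p = 0.237). With treated d14 tumor 2 as the only treated d14 tumor, the difference was 2.28 for Apoe, 1.05 for Folr2 and 1.02 for Cd36.

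Between the treated groups, from d10 to d14, 2 of the 9 genes were called, where 11.5% of 17791 genes were called, 9.0% higher and 2.48% lower. Apoe rose by 1.92 ± 0.14 (adjusted p = 2.80e-04) and Lyve1 fell by 1.05 ± 0.27 (adjusted p = 0.0124). The Lyve1 call was lost without treated d10 tumor 2 or 3 or treated d14 tumor 2, where the change was as small as -0.84, and with library size in place of TMM (-0.93). By adjusted p alone Cd36 was higher (0.60 ± 0.08, adjusted p = 9.17e-04) and Gpnmb lower (-0.58 ± 0.10, adjusted p = 0.00220). At any fold 4 of the 9 passed, against 46.6% of all genes. The treated d14 tumors lay above all treated d10 tumors in 2 of the 9 (Apoe and Cd36), against 29.1% of all genes, and below them in 3 (Lyve1, Gpnmb and Folr2), against 30.7%. F13a1 stood at -0.06 ± 0.08 (adjusted p = 0.551).

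Treated d14 tumors were also set against untreated d10 tumors, which the study also compared. Of the 9 genes 1 was called, Apoe, 1.29 ± 0.25 higher (adjusted p = 0.00675), where 7.83% of 18057 genes were called, 5.34% higher and 2.49% lower. F13a1 (0.58 ± 0.13, adjusted p = 0.0113) and Cd36 (0.51 ± 0.15, adjusted p = 0.0336) were higher and Folr2 (-0.68 ± 0.19, adjusted p = 0.0285) lower by adjusted p alone. At any fold 27.7% of all genes passed. The same 4 genes did not overlap between the groups, where 17.6% of all genes were higher and 16.4% lower. Cd163 stood at -0.27 ± 0.36, and its sign turned without untreated d10 tumor 4. With treated d14 tumor 2 alone, Apoe was at 1.43.

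The 9 genes were then read against the macrophage genes as a whole. The 15 pan-macrophage genes summed to between 3090 and 3305 CPM at d6, 3682 and 5896 at untreated d10, 1514 and 2851 at untreated d14, 3535 and 4103 at treated d10 and 4400 and 5345 at treated d14. The sum was thus lowest in the untreated d14 tumors, and each treated d14 tumor exceeded each of these. In deviations from the group means over the 17 tumors, which share libraries and depth, Apoe followed the sum most closely (Pearson r = 0.83) and Spp1 went against it (r = -0.48).

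**Figure D4:**
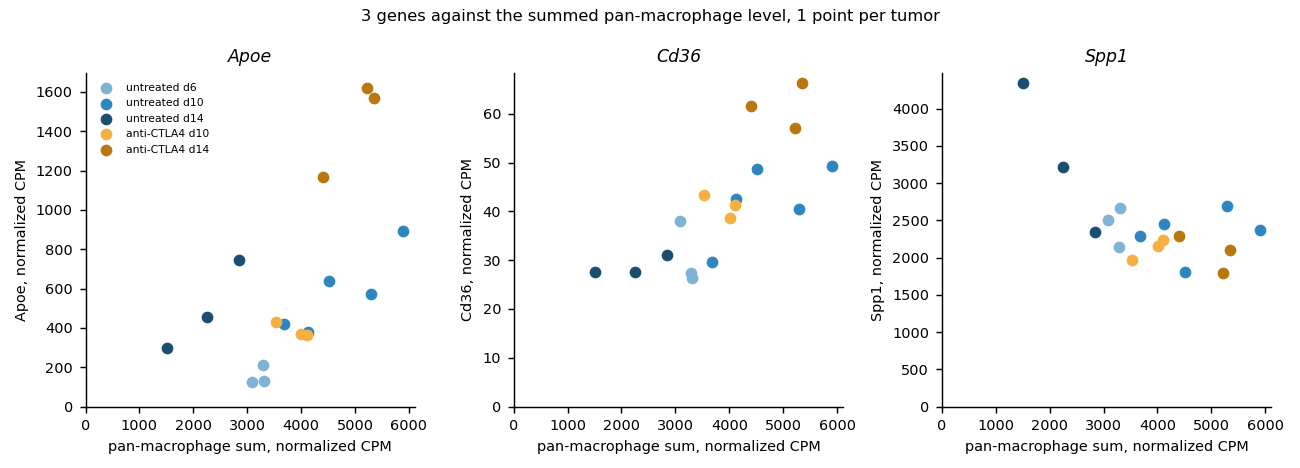
Apoe, Cd36 and Spp1 against the summed level of 15 pan-macrophage genes, all in normalized CPM on linear axes, with 1 point per tumor colored by group. Treated d14 tumors sit at the top right for Apoe and Cd36, and untreated d14 tumors 1 and 2 at the top left for Spp1.

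Divided by the pan-macrophage sum, the genes fell into a different order of changes. The mean of the sum was 4702 CPM at untreated d10, 2205 at untreated d14 and 4988 at treated d14. A gene of steady level would therefore also differ in ratio between these groups. The share of all genes whose ratio did not overlap was not computed, so the genes named here are not set apart from other genes. Between untreated d10 and d14 the log2 ratio of Folr2 differed by -0.40 and that of Cd163 by 0.04, with overlapping groups, where their levels had fallen past the thresholds. The ratio was higher at d14 without overlap for Spp1 (1.60), Gpnmb (1.15), Apoe (0.87) and Cd36 (0.59). Divided by the 3 C1q genes instead, Mrc1 (1.19) and F13a1 (1.21) were higher without overlap as well. Between d6 and d10 the ratio of F13a1 (1.51) and of Apoe (1.35) was higher without overlap, and that of Spp1 (-0.60) and Folr2 (-0.54) was lower. With the C1q genes as denominator Spp1 overlapped (-0.42) and the other 3 did not.

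In treated against untreated d14 tumors the ratios of Cd36 (-0.12), F13a1 (-0.26), Cd163 (-0.30) and Folr2 (-0.32) overlapped between the groups. Apoe had a higher ratio without overlap (0.41), but its groups overlapped when the C1q genes were the denominator (0.43). The ratio was lower without overlap for Spp1 (-1.86), Gpnmb (-1.59), Lyve1 (-1.20) and Mrc1 (-1.08). At d10 the ratio of F13a1 was 0.97 higher with treatment and did not overlap, and those of the other 8 genes overlapped. Over the C1q genes F13a1 (1.29), Gpnmb (0.83) and Folr2 (0.30) were higher with treatment without overlap at d10. No test was run on these ratios, whose denominator differs between the groups, and the share of all genes without overlap was not computed.

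**Figure D5:**
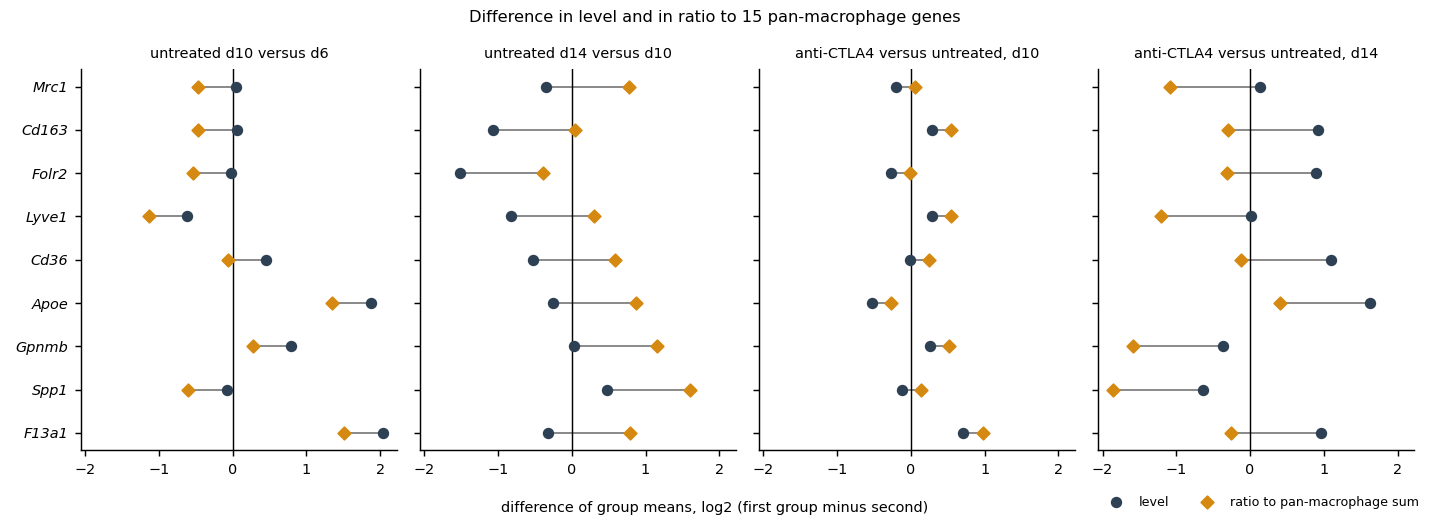
Difference between group means on a log2 scale for the level of each gene (circles) and for its ratio to the summed pan-macrophage genes (diamonds), in 4 comparisons, with positive values higher in the group named first. In treated against untreated d14 tumors the difference of Cd36 goes from 1.10 in level to -0.12 in ratio and that of Apoe from 1.63 to 0.41.

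Genes of the same pathways were read from lists drawn up for these tumors. From d6 to d10, where 4.79% of all genes were called higher and 2.66% lower, 4 of 18 other scavenger receptors were called higher and 1 lower, with a median log2 fold change of 0.84 against 0.03 over all genes tested. Olr1, the receptor of oxidized LDL, rose by 1.93, Stab1 (stabilin) by 1.71 and Mrc2, a collagen receptor, by 1.28, and Timd4, which binds phosphatidylserine, fell by 1.07. Of 24 genes of lipid handling and lysosomes 5 were called higher and 0 lower, among them the cholesterol exporter Abca1 (2.67) and the apolipoprotein receptor Lrp1 (1.43), which bear on the same lipoprotein as Apoe. The 15 pan-macrophage genes had 0 calls, but 4 were higher and 0 lower by adjusted p alone, with a median of 0.39. Of 11 genes of alternative activation 0 were called higher and 3 lower (Ccl17, Retnla and Ccl22), while 2 were higher by adjusted p alone and the median was 0.28. Of 15 partners of Folr2, Lyve1 and Cd163 in resident-like macrophages, 2 were called higher and 3 lower (Ednrb, Pf4 and Mgl2), with a median of 0.01. Of 10 resident peritoneal macrophage genes, 0 were called higher and 5 lower, with a median of -1.05.

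From d10 to d14 without treatment no gene of these lists was called higher, against 3.78% of all genes, and 1 lipid gene was higher by adjusted p alone. Called lower, as 3.45% of all genes were, were 8 of 15 pan-macrophage genes, with C1qa, C1qb and C1qc at -1.54, -1.54 and -1.56, and the median was -1.01. Among the partners of Folr2, Lyve1 and Cd163 in resident-like macrophages 4 of 15 were called lower, with Ccl24 at -2.74, Mgl2 at -1.92 and Ccl8 at -1.44. Of the resident peritoneal macrophage genes 2 of 10 were called lower. Of the scavenger receptors 3 of 18 were called lower (Marco, Cxcl16 and Clec7a), and of the lipid genes 2 of 24, Tfec and Tyrobp, the adaptor of Trem2 (-1.03). At any fold 12 of 24 lipid genes were lower by adjusted p, with a median of -0.46. Of 11 genes of alternative activation 4 were called lower, with Retnla at -4.71, Pdcd1lg2 at -1.74 and Il10 at -1.27, and the median was -0.71.

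In treated against untreated d14 tumors 0 genes of the macrophage lists were called lower, against 2.4% of all genes. By adjusted p alone 2 lipid genes, 1 gene of alternative activation and 1 monocyte gene were lower. Called higher, as 9.07% of all genes were, were 11 of 15 pan-macrophage genes, 9 of 18 scavenger receptors, 5 of 24 lipid genes, 5 of 11 genes of alternative activation and 2 of 15 resident-like partners. Of 10 resident peritoneal macrophage genes 1 was called higher (Rarb, 1.07), and 5 were higher by adjusted p at any fold. Abca1 (1.90) and Abcg1 (1.53), which export cholesterol, were called beside Apoe, and Gas6 (1.71) and Igf1 (1.27) were the 2 resident-like partners. At d10 all 7 macrophage lists had 0 calls in either direction, where only 3 of 17258 genes (0.0174%) were called. The lists were not read against d10 tumors 1 to 3 alone. In the difference of treatment effects between d14 and d10, 0 genes of these 7 lists were called more negative. Called more positive, as 9.67% of all genes were, were 12 of 15 pan-macrophage genes, 10 of 18 scavenger receptors and 7 of 24 lipid genes. So were 6 of 15 resident-like partners, 5 of 11 genes of alternative activation, 5 of 10 resident peritoneal macrophage genes and 2 of 8 monocyte genes.

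Markers of other cells were read in the treated d14 comparison as well, where 9.07% of all genes were called higher and 2.4% lower. A single call in the endothelial or the monocyte list is near that share. At any fold, 5 of 8 endothelial and 4 of 8 monocyte genes were higher by adjusted p, where 32.4% of all genes passed in either direction. The medians of these 2 lists were 0.59 and 0.63, against -0.00 over all genes. With treatment at d14, 4 of the 4 tested pancreas genes, 1 of 8 endothelial genes (Vwf, 1.31), 1 of 5 adipocyte genes (Plin1, 1.74), 1 of 3 platelet genes (Itgb3, 1.14), 1 of 3 lymphatic genes, the 1 liver and the 1 muscle gene tested, 2 of 7 mesothelial genes (Lrrn4 and Wt1) and 1 of 8 monocyte genes (Nr4a1, 1.06) were called higher. By adjusted p alone 3 of the 7 mesothelial and tumor genes, 1 platelet and 1 monocyte gene were lower. The mesothelial and tumor list had a median of -0.37, and its sum lay between 2765 and 2833 CPM in the untreated and between 1878 and 2096 in the treated d14 tumors. Their part in the values of the 9 genes was not tested.

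For each gene the 3 genes with the most alike pattern over the 17 tumors were looked for among 12379 genes with a mean of at least 1 CPM. Among them were Adam8 (Pearson r = 0.98 on log2(CPM + 1)) and Txnrd1 for F13a1, Cux2 (0.96), Col16a1 and Bmf for Apoe, and Atp1b3 (0.96), Atp6v0c and Hprt for Folr2. Gpnmb went with Sord (0.93), Slc35f5 and Cd99l2, Cd36 with Gramd3 (0.92), Clec2i and Arrdc4, and Spp1 with Bdnf (0.87), Taf1b and Aldh1l2. Mrc1 went with Pnrc1 (0.85), Basp1 and Kif2a, Cd163 with Lpl (0.85), Utf1 and Gdf15, and Lyve1 with Stra6 (0.84), Pop5 and Thumpd2. In deviations from the group means the first partner of F13a1 was at 0.17 and that of Gpnmb at 0.91, so the likeness of F13a1 lay between the groups and that of Gpnmb within them as well. No p is given, since the genes were picked as the highest of 12379.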

How the data were processed

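RNA of 17 AB12 tumors, taken per the study's methods from independent mice, was sequenced as paired-end libraries. The study's methods give different read lengths for different instruments. Per the submitters' processing notes and the study's methods, the authors aligned reads to GRCm38 with TopHat2 2.0.14 and counted uniquely mapped reads per gene with HTSeq over Gencode vM21, and the deposited values are raw counts. Use of strand in counting is not given in the sources used here. The authors removed genes with a batch effect between sequencing projects, and this step was not repeated.

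From the counts, edgeR 4.0.16 (R 4.3.3) was used with filterByExpr, TMM factors and the quasi-likelihood test on the groups compared, with the difference between treatment effects tested in a fit of 4 groups. A gene was called at a Benjamini-Hochberg adjusted p under 0.05 and a fold change over 2. Standard errors were derived from the F statistic. Levels are CPM with TMM factors over 17 tumors, per kilobase of the union of exons where genes are compared. DESeq2 1.42.0 was an alternative, as were library size scaling, no filter, all 5 groups in one fit, leaving out each tumor, untreated d10 tumors 1 to 3 or 4 and 5 alone and the replicate number as a block. Leaving out the 2 tumors with pancreas transcripts was added after the data were seen. The edgeR script was tested on simulated counts.

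The 10 genes and all gene lists were chosen with earlier results of these data known, so their calls are not independent evidence. From each list and comparison, at most 3 called genes in each direction, with a mean of at least 1 CPM, were named by size of change, and all 10 genes were described. Genes of most alike pattern were sought on log2(CPM + 1). One of these genes is not reported here. The numbers of the tumors do not pair them: over 30 same-numbered pairs the correlation of deviations from the group means lay between -0.30 and 0.23, above 0.1 in 9. Total counts had a median of 72413343 per tumor, and replicates differed beyond counting noise in all 22 pairs (chi-square per gene 18.5 to 267.6). All columns of the table were mapped to a tumor. Sequences are from RefSeq, and 1 of the 10 genes had no entry. Python 3.11.15, pandas 2.3.3 and matplotlib 3.10.9 were used for tables and figures.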

Additional observations from a re-analysis of the deposited data

Results flagged for a closer look

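Untreated d10 tumor 4 stood apart from the other 4 tumors of its group for 2 of the 9 genes, with 19.1 CPM of Cd163 and 275 CPM of Gpnmb. The gap to the nearest tumor was 0.827 of the range of the group for Cd163 and 0.807 for Gpnmb. In all, 18 sets of values of this group were looked at, the level of each of the 9 genes and its ratio to the pan-macrophage sum, and chance marks about 1 set in 20.

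The treatment effect at d14 was more positive than at d10 by 1.21 on the log2 scale for Folr2 (adjusted p = 0.0115, edgeR's quasi-likelihood test of the interaction), by 1.16 for Cd36 (adjusted p = 0.00395) and by 2.15 for Apoe (adjusted p = 0.00619). All 3 treated d14 tumors lay above all 3 untreated d14 tumors for these genes, and the groups overlapped at d10. Such a difference was also called for 12 of 15 pan-macrophage genes, with a median of 1.38, and for 11.8% of all genes.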

How the results depend on the processing

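Of the log2 fold changes of single genes under whole-group alternatives, 453 kept direction and call, 9 lost a call, 4 gained one and 20 changed sign, and each sign change was of a change that had not been called. The number of the 9 genes called went from 2 to 1 between untreated d14 and d10 against d10 tumors 1 to 3, and from 2 to 1 between treated d14 and d10 tumors with library size in place of TMM. Against d10 tumors 4 and 5 it went from 2 to 3 between untreated d14 and d10 (Lyve1 -1.09, adjusted p = 0.0298), from 2 to 3 between d6 and d10 (Gpnmb 1.03) and from 1 to 2 between treated d14 and untreated d10, and with library size from 2 to 3 for treated against untreated d14. Leaving out the 2 tumors that held pancreas transcripts left 1 treated d14 tumor. The number of genes called in such fits cannot show whether a call holds and is not given. These fits are included in the numbers of kept and lost calls above. With each tumor left out in turn, the count ran from 1 to 2 for untreated d14 against d10, from 2 to 5 for treated against untreated d14 and from 1 to 2 for treated d14 against treated d10. Leave-one-out counts equalled those reported between d6 and d10 (2), between treated and untreated d10 (0), between treated d14 and untreated d10 (1) and for the difference of treatment effects (3), and ran from 4 to 6 between d6 and d14.

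The numbers of the tumors do not pair them, and with the replicate number as a block the count was 2 between d6 and d10, 1 between untreated d10 and d14 (Cd163 -0.83, no longer called), 5 between d6 and d14, 0 for treated against untreated d10, 2 for treated against untreated d14, 2 between the treated groups, 1 for treated d14 against untreated d10 and 3 for the difference of treatment effects. Over all genes at d10, the block gave 363 higher and 847 lower with treatment, against 3 higher and 0 lower without it. Numbers 4 and 5 occur in untreated d10 alone, and without them and without the block the counts were 329 and 823. With the block Mrc1 was lower by adjusted p alone in untreated d14 against d10 (-0.53) and d6 (-0.29) and in treated d10 (-0.39) and treated d14 (-0.43) against untreated d10. Sign changes under the block were Cd163 -0.16 and Spp1 0.06 between d6 and d10, Mrc1 0.00 between the treated groups and Cd163 0.04 for treated d14 against untreated d10.

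The other sign changes were small. Against or with d10 tumors 1 to 3, they were Cd163 -0.20 and Spp1 0.06 between d6 and d10 and Cd163 0.09 for treated d14 against untreated d10. With d10 tumors 4 and 5, they were Mrc1 -0.23 between d6 and d10, Gpnmb -0.18 between d10 and d14, Mrc1 0.08, Cd163 -0.24, Cd36 0.06 and Spp1 0.05 for treated against untreated d10, Mrc1 0.04 for treated d14 against untreated d10 and Lyve1 0.04 for the difference of treatment effects. With library size alone, they were Cd36 0.01 between d6 and d14 and Mrc1 0.12, Spp1 0.09 and F13a1 0.05 between the treated groups, where this scaling moved the median of all genes to 0.16, as it did to 0.11 for treated d14 against untreated d10. In the latter the split of all called genes went from 964 higher and 450 lower to 1304 and 282. Without the tumors with pancreas transcripts, Lyve1 was -0.46 for treated against untreated d14.

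Leaving out single tumors turned the sign of these changes, none of them called: between d6 and d10 Mrc1 (-0.01 to 0.18), Cd163 (-0.23 to 0.39), Folr2 (-0.09 to 0.11) and Spp1 (-0.13 to 0.03), between d10 and d14 Apoe (-0.62 to 0.04) and Gpnmb (-0.22 to 0.25), between d6 and d14 Cd36 (-0.18 to 0.11), for treated against untreated d10 Cd36 (-0.13 to 0.03), for treated against untreated d14 Mrc1 (-0.00 to 0.25) and Lyve1 (-0.18 to 0.34), between the treated groups Mrc1 (-0.08 to 0.10) and Spp1 (-0.10 to 0.06), for treated d14 against untreated d10 Cd163 (-0.57 to 0.10), and for the difference of treatment effects Lyve1 (-0.48 to 0.01). The causes of these differences were not tested.

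Groups of 3 tumors limit what these tests can show. The treated d14 group has 1 tumor with almost no pancreas transcripts. The sequencing project of each tumor is not given in the sources used here, so project cannot be told apart from day or from treatment.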
